A study of Mus musculus with 12 samples.

Results

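Malat1, Neat1 and Kcnq1ot1 are long non-coding RNAs that stay in the nucleus. They were chosen by name, with their read counts in these 12 libraries already known and known to vary between libraries of a group, and they are 3 of the 36875 gene symbols measured. Their levels and fold changes are therefore given as a description, with no test. RNA of cultured mouse fibroblast-like synoviocytes, the fibroblasts that line joints, was sequenced after poly(A) enrichment in 3 groups of 4 libraries. The homeostasis group, called WT in the sample descriptions, drank water with 5% sucrose over 3 weeks. The inflammation group (DOX ON) drank the same sucrose water with doxycycline at 1 mg/ml, again over 3 weeks. The resolution group (DOX OFF) had the same course, after which doxycycline was stopped. The shared protocol names mice with arthritis induced by tumour necrosis factor (TNF). The sources used here do not state the transgene, its promoter, the strain, age or sex of the animals, how many animals stand behind a library, or whether the groups share a genotype.

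Malat1 collects in nuclear speckles, the bodies where splicing factors are stored, and its body carries no ordinary poly(A) tail: the enzyme RNase P cuts it ahead of a small tRNA-like RNA, mascRNA, and the new end folds into a triple helix with an A-rich stretch. Neat1 is the scaffold of paraspeckles, bodies that hold RNA-binding proteins and edited RNAs. A short polyadenylated form of Neat1 and a long form, processed like Malat1, start at the same site, and the long form is the one that builds the body. Kcnq1ot1 is an imprinted RNA transcribed from the paternal chromosome against the direction of Kcnq1, and it silences neighbouring genes there with the help of Polycomb and histone H3K9 methyltransferases.

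The 3 genes lie in 2 places of the mouse genome (GRCm38, GENCODE M21 models). Malat1 spans chr19:5795690-5802672 on the minus strand, as a single-exon model of 6983 bases used here. Neat1 lies 22.0 kilobases upstream of it at chr19:5824708-5845478, also on the minus strand, with a long model of 20771 bases and a short one of 3004 bases that share their 5′ part. Kcnq1ot1 spans chr7:143203458-143296549 on the minus strand, 93092 bases, inside Kcnq1 (chr7:143106362-143427042, plus strand). Whether the counting used strand is not stated, so reads of Kcnq1ot1 and of Kcnq1 introns cannot be told apart, nor can the 2 forms of Neat1, which have 1 count between them.

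The 3′ ends are shown because the libraries were made by poly(A) enrichment, and the genes differ in what such a step can hold on to. All are read 5′ to 3′ on the minus strand from the GENCODE M21 transcripts. In the Malat1 stretch (bases 6604 to 6749 of the model, chr19:5795924-5796069) capitals mark a run of 12 A, then mascRNA as placed by RefSeq, which starts 6 bases after the run. In the end of long Neat1 (chr19:5824708-5824787) capitals mark the A-rich end. In the end of short Neat1 (chr19:5842307-5842366) and of the annotated Kcnq1ot1 (chr7:143203458-143203517) capitals mark the AATAAA polyadenylation signal. In the last stretch (chr7:143226925-143227005) capitals mark the longest run of A inside Kcnq1ot1.
Malat1, processed end: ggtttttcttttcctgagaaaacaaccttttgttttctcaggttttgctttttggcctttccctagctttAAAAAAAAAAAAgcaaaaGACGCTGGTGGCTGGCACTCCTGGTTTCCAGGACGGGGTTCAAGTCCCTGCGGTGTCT
Neat1, end of the long form: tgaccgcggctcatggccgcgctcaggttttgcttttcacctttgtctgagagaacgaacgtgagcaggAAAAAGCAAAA
Neat1, end of the short form: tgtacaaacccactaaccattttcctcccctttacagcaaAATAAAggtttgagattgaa
Kcnq1ot1, annotated end: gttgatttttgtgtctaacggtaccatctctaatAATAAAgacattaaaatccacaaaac
Kcnq1ot1, longest A run: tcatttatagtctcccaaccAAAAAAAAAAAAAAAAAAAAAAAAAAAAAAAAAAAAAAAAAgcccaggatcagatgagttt

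Kcnq1ot1 held 30 runs of 8 or more A, the longest of 41. Malat1 held 1 such run, the one shown, and neither Neat1 model held any. Among 13628 tested genes with an annotated transcript, 31.6% had a run of 8 or more A in their longest transcript and 11.1% a run of 12 or more. The GC content was 42.5% for Malat1, 47.3% for long Neat1, 51.1% for short Neat1 and 40.3% for Kcnq1ot1.

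Total counts per library ran from 18120745 to 34971537. Summed over 12 markers, synovial fibroblast RNA stood at 29565 to 32044 CPM (counts scaled to library size with TMM factors) in homeostasis, 21399 to 24649 CPM in inflammation and 10657 to 16307 CPM in resolution, with none of the 12 at 0. The 12 macrophage markers summed to 115 to 153, 649.8 to 711 and 63.5 to 71.3 CPM, also with none at 0. The 8 chondrocyte markers summed to 867 to 1123, 36.9 to 45.3 and 63.7 to 95 CPM (1 without a count in resolution), and the 8 Schwann cell markers to 66.5 to 80.7, 26.8 to 32.3 and 41.6 to 49.9 CPM, with none at 0. Markers of endothelial cells summed to at most 22.5 CPM and those of skeletal muscle to at most 91 CPM in any library, and of 6 markers of T and B lymphocytes 5, 6 and 4 had no count in a group. Less RNA of a kind and fewer cells of a type cannot be told apart in such libraries. Summed counts of 4 Y-linked genes (Ddx3y, Eif2s3y, Kdm5d and Uty) were 1122 to 1987 in each homeostasis library, at most 3 in an inflammation library and 0 in resolution, so sex and doxycycline cannot be told apart in comparisons against homeostasis. Nothing in the labels makes the 4 libraries of a group separate cultures or animals. The p-values below therefore set group differences against the spread between these libraries only, and that spread may be technical.

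Malat1 was the most abundant of the 3 RNAs and had the largest within-group SD of log2 CPM pooled over the groups, although in resolution the highest library exceeded the lowest by less for Malat1 (4.12-fold) than for Neat1 (5.77-fold) or Kcnq1ot1 (4.21-fold). Its normalized level in homeostasis libraries 1 to 4 was 585, 129.7, 575 and 166 CPM. In inflammation it was 440.5, 1384, 2107 and 579 CPM, and in resolution 1164, 817, 3364 and 2482 CPM. Every resolution library lay above every homeostasis library, while inflammation 1 and 4 lay within the homeostasis range. Group means were 364 ± 250.1 CPM, 1128 ± 774 CPM and 1957 ± 1181 CPM (SD, n = 4). The log2 fold change against homeostasis was 1.63 ± 0.73 (SE) in inflammation and 2.43 ± 0.75 in resolution, and 0.80 ± 0.72 for resolution against inflammation, where the groups overlapped. In 2 comparisons the controls are the same 4 libraries. Without inflammation 3 the first value was 1.14, and without resolution 3 the last was 0.40.

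Neat1 was higher in inflammation than in homeostasis and split the resolution libraries into pairs. It stood at 69.2, 47.2, 78.0 and 60.1 CPM in homeostasis and at 158, 179, 254 and 238 CPM in inflammation. In resolution it stood at 57.9, 274, 334 and 92.0 CPM. Inflammation and homeostasis did not overlap, whereas resolution 1 lay inside the homeostasis range, resolution 4 just above it and resolution 2 and 3 above every inflammation library. Group means were 63.6 ± 13.2, 207 ± 45.8 and 189.5 ± 135 CPM (SD, n = 4), with log2 fold changes against homeostasis of 1.71 ± 0.48 (SE) and 1.58 ± 0.48. Without resolution 3 the second was 1.16. Resolution against inflammation gave -0.13 ± 0.47, and this sign turned without resolution 1 (0.16) or resolution 4 (0.08).

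Kcnq1ot1 was scarce, with 36 to 238 counts per library, and was highest in 2 resolution libraries. Its level was 1.83, 1.63, 2.51 and 1.99 CPM in homeostasis and 2.42, 1.97, 4.46 and 2.65 CPM in inflammation. In resolution it was 2.83, 2.57, 10.8 and 6.56 CPM. All resolution libraries lay above the homeostasis range, although resolution 1 and 2 did so by less than their counting error, the 95% exact Poisson interval of resolution 2 being 1.94 to 3.34 CPM. Means were 1.99 ± 0.375, 2.87 ± 1.09 and 5.69 ± 3.86 CPM (SD, n = 4). The log2 fold change was 0.54 ± 0.39 (SE) in inflammation, 1.53 ± 0.38 in resolution and 1.00 ± 0.37 between them (0.86 ± 0.26 in a fit blocked by replicate number). In each of the 4 same-numbered pairs the resolution library was the higher, although the labels do not say what the number marks. For numbers 1 and 2 the 95% exact Poisson intervals overlapped. They were 1.81 to 3.17 and 2.14 to 3.69 CPM in inflammation 1 and resolution 1, and 1.45 to 2.61 and 1.94 to 3.34 CPM in inflammation 2 and resolution 2. Without resolution 3 the log2 fold changes of resolution were 1.03 against homeostasis and 0.48 against inflammation, and without inflammation 3 that of inflammation was 0.25.

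**Figure D1:**
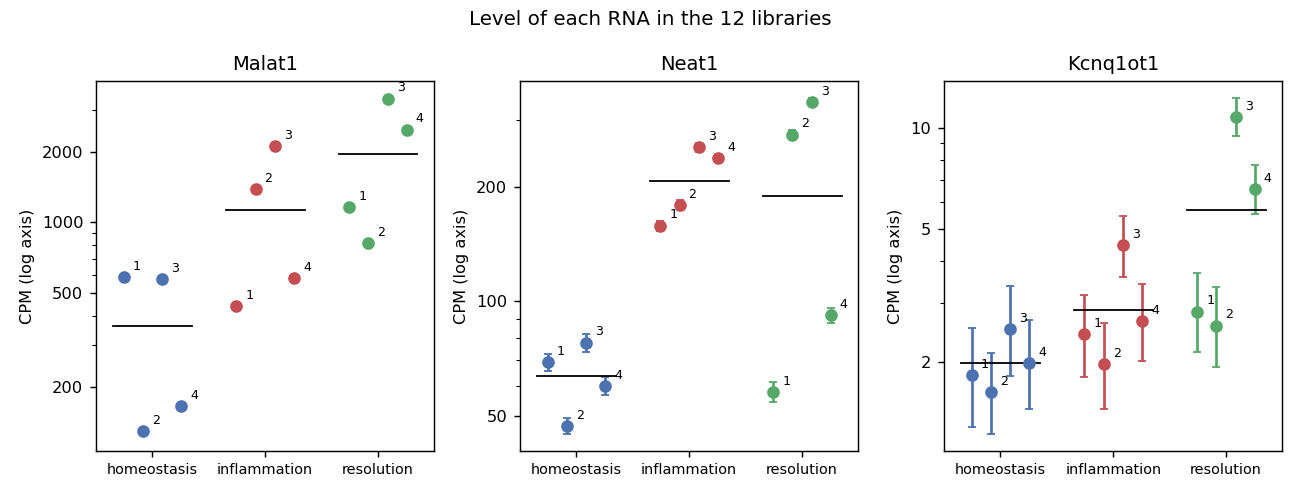
TMM-normalized CPM (log axis) of Malat1, Neat1 and Kcnq1ot1 in each library, numbered by replicate, with group means as black lines and 95% exact Poisson intervals of the count as bars. Malat1 ran from 129.7 to 3364 CPM, and in resolution Neat1 fell into libraries 1 and 4 (57.9 and 92.0 CPM) and libraries 2 and 3 (274 and 334 CPM).

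For scale, 37.2% of the 15049 genes tested passed between inflammation and homeostasis, 19% higher and 18.3% lower (quasi-likelihood test of edgeR, Benjamini-Hochberg adjusted p under 0.05). Between resolution and homeostasis 53.3% passed, 27.5% higher and 25.8% lower. Between resolution and inflammation 16.2% passed, 8.52% higher and 7.64% lower. Nothing is read from these shares about the 3 members, whose contrasts were known when they were chosen. Total counts without scaling factors gave 4858 higher and 2983 lower between resolution and homeostasis, against 4137 and 3888, and 1888 and 953 between resolution and inflammation, against 1282 and 1149. With upper-quartile factors the latter balance turned, to 1011 higher and 1318 lower. Between inflammation and homeostasis 2852 and 2750 became 3189 and 2227 with total counts alone and 3297 and 2151 with upper-quartile factors. Between resolution and homeostasis the median log2 fold change of all genes was -0.01. It moved to 0.13 with total counts alone and to 0.02 with upper-quartile factors.

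Per kilobase of model, the order of the 3 genes was the same in every group. Malat1 stood at 52.1 ± 35.8, 161 ± 111 and 280.2 ± 169 CPM per kilobase in homeostasis, inflammation and resolution. Neat1 stood at 3.06 ± 0.635, 9.98 ± 2.21 and 9.13 ± 6.51 CPM per kilobase of the long form, or at 21.2 ± 4.39, 69.0 ± 15.3 and 63.1 ± 45.0 CPM per kilobase if all of its reads came from the short form. Kcnq1ot1 stood at 0.0214 ± 0.00403, 0.0309 ± 0.0117 and 0.0611 ± 0.0415 CPM per kilobase (SD, n = 4). With the short form, the ranges of Neat1 and Malat1 overlapped in homeostasis (15.7 to 26.0 and 18.6 to 83.8 CPM per kilobase) and in inflammation (52.6 to 84.5 and 63.1 to 302), and not in resolution (19.3 to 111 and 117 to 482).

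The spread inside a group was wide for all 3 RNAs. The within-group SD of log2 CPM was 1.06 for Malat1, against a median of 0.20 over the 191 genes within 2-fold of its mean level, and 0 of those had a larger SD. For Neat1 it was 0.75 against 0.20, with a larger SD in 7 of 2075 genes of like level. For Kcnq1ot1 it was 0.65 against 0.34, with a larger SD in 73 of 2604. Because the members were named with this variation known, these figures describe them and test nothing.

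The libraries that were high for one RNA were not always those high for another. Homeostasis 1 and 3 and inflammation 2 and 3 were the high ones for Malat1, and resolution 3 and 4. Neat1 was high in resolution 2 and 3 instead, and the ratio of Malat1 to Neat1 went from 2.98 in resolution 2 to 27.0 in resolution 4. Across all libraries that ratio ran from 2.43 in inflammation 4 upward. Over the 12 libraries, deviations from the group mean correlated (Pearson r) at 0.29 for Malat1 and Neat1, 0.65 for Malat1 and Kcnq1ot1 and 0.42 for Neat1 and Kcnq1ot1. These coefficients describe 12 points that share library, depth and base composition.

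Genes that followed Malat1 across the libraries were long and poor in GC. By log2 CPM over 12 libraries, the 5 nearest of 8861 genes with at least 10 CPM were Rc3h2, an RNA-binding ubiquitin ligase, Wdr37, Zbed6, Med13, a subunit of the Mediator kinase module, and Zfp445 (r from 0.978 to 0.963). Med13 stood at 29.6, 16, 29.5 and 17.5 CPM in homeostasis and at 56.1, 40.6, 90.6 and 78.2 CPM in resolution, with homeostasis 2 and 4 and resolution 1 and 2 the low libraries, as for Malat1. After the group means were taken out, the nearest were Med13 (0.966) and the entries LOC105245046 (0.975), LOC105244058, LOC105243981 and LOC105246107, which matched nothing in the reference tables used. LOC105245046 stood at 454, 27.1, 707 and 54.2 CPM in homeostasis, 31.0, 592, 724 and 49.6 CPM in inflammation and 184, 97.5, 743 and 482 CPM in resolution. Like Malat1, it was high in homeostasis 1 and 3, inflammation 2 and 3 and resolution 3 and 4.

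Neat1 had other neighbours in expression. Its 5 nearest genes by level were Dnm3os, itself a long non-coding RNA and the host of a microRNA cluster, Tle2, Spaca6, 2610203C20Rik and Clk1, a kinase that phosphorylates SR splicing proteins (r from 0.951 to 0.921). Dnm3os stood at 5.98 to 10.6 CPM in homeostasis and 13.1 to 20.3 CPM in inflammation, and at 8.50, 20.8, 26.8 and 13.8 CPM in resolution. Clk1 stood at 33.0 to 37.5 and 47.2 to 59.2 CPM, and at 37.3, 62.8, 82.0 and 47.0 CPM in resolution, so both were high in resolution 2 and 3 and low in 1 and 4. After group means were taken out, the nearest were 2610203C20Rik (0.964), Ccnl2, a cyclin of splicing speckles, Rsrp1, Snapc4 and Leng8 (0.949).

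Kcnq1ot1 was nearest to Pfkfb2, which controls a switch of glycolysis (r 0.944), Atp2b1, a calcium pump, Ints6, Pcf11, a factor that ends transcription, and Cep170 (0.910). Pfkfb2 stood at 10.5 to 11.7 CPM in homeostasis and at 16.2, 12.6, 26.0 and 23.7 CPM in resolution, again highest in resolution 3 and 4. After group means were taken out, the nearest were Spp1, which encodes the matrix protein osteopontin (0.917), 9930021J03Rik, Atp2b1, Mob1b and Pfkfb2 (0.896). With Spearman's rho in place of Pearson's r, 1 of the 5 genes nearest to Malat1 by level, Rc3h2, stayed among the 5 nearest (Med13 tied for the fifth place and is not counted), 4 of the 5 for Neat1 and 0 for Kcnq1ot1.

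Of the 100 genes nearest to each member after group means were taken out, Malat1 and Kcnq1ot1 shared 11, and Neat1 shared 0 with either. The median GC content of those 100 was 41.4% for Malat1, 57.3% for Neat1 and 43.1% for Kcnq1ot1, against 50.1% over all genes ranked. Their median transcript length was 7058, 6176 and 5619 bases against 3505 bases. At least 92 of each 100 had an annotated transcript.

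**Figure D2:**
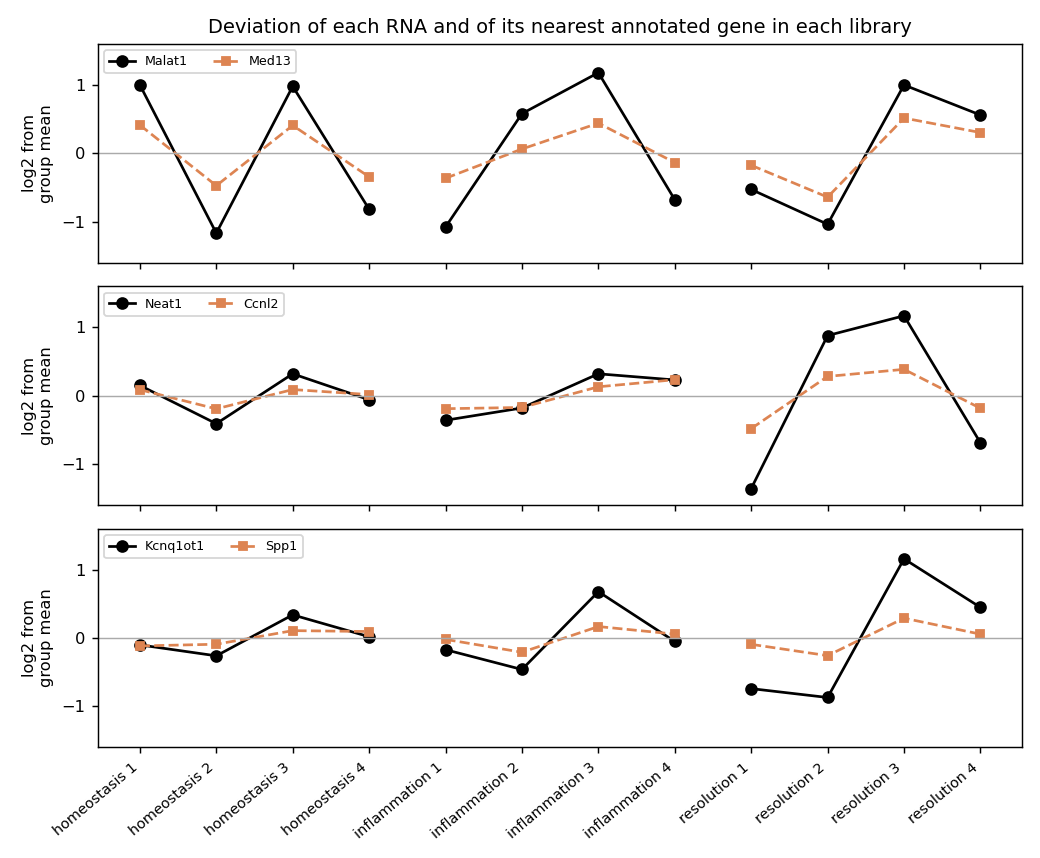
Deviation of log2 CPM from the group mean in each library for Malat1, Neat1 and Kcnq1ot1 (black circles) and for the nearest gene with an annotated transcript (orange squares: Med13, Ccnl2 and Spp1). Malat1 was 1.18 above its group mean in inflammation 3 and 1.17 below in homeostasis 2, and Neat1 was 1.36 below in resolution 1.

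The balance between GC-poor and GC-rich genes also differed between libraries. The median log2 deviation of the 1363 GC-poorest genes minus that of the 1363 GC-richest was -0.21, -0.31, -0.65 and -0.97 in homeostasis. It was -0.10, -0.11, 0.09 and 0.02 in inflammation and 0.57, -0.04, 0.88 and 0.75 in resolution. Resolution 3 and 4, with the highest values, were also the highest libraries for Malat1 and Kcnq1ot1, while Neat1 was high in resolution 2 and low in resolution 1 and 4. Homeostasis 1 and inflammation 3, highest in their groups by this balance, were also highest for Malat1. Yet homeostasis 3 had a lower balance than homeostasis 2 and more Malat1 (575 against 129.7 CPM). Likewise inflammation 2 had a lower balance than inflammation 4 and more Malat1 (1384 against 579 CPM). Offsets for GC content and transcript length were added after seeing the data, and with them Malat1 gave a log2 fold change of 1.30 ± 0.63 (SE) in inflammation and 1.67 ± 0.64 in resolution. Neat1 gave 1.62 ± 0.52 and 1.30 ± 0.52. Kcnq1ot1 gave -0.09 ± 0.30 and 0.35 ± 0.29, so its sign in inflammation turned, with a value smaller than its SE. The offsets capped transcript length, so the long Kcnq1ot1 model was corrected as a shorter one. Mitochondrial mRNAs summed to 14140.3 to 18262 CPM in homeostasis, 18659 to 24714 in inflammation and 19189.8 to 31511 in resolution. Transcripts without a poly(A) tail summed to 13.9, 7.88, 20.8 and 10.1 CPM in homeostasis libraries 1 to 4, to 10.7, 22, 37.1 and 8.53 CPM in inflammation and to 12.1, 15.5, 18 and 25.2 CPM in resolution. The 2 highest libraries of each group were those highest for Malat1. Of the 21 transcripts, 11 were tested with edgeR. In inflammation 2 rose and 0 fell (18.2% and 0%, median log2 fold change 0.90, against 19% and 18.3% of all genes). In resolution 4 rose and 1 fell (36.4% and 9.09%, median 0.38, against 27.5% and 25.8% of all genes). Whether these library measures reflect RNA quality, and their part in the members' levels, was not tested.

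**Figure D3:**
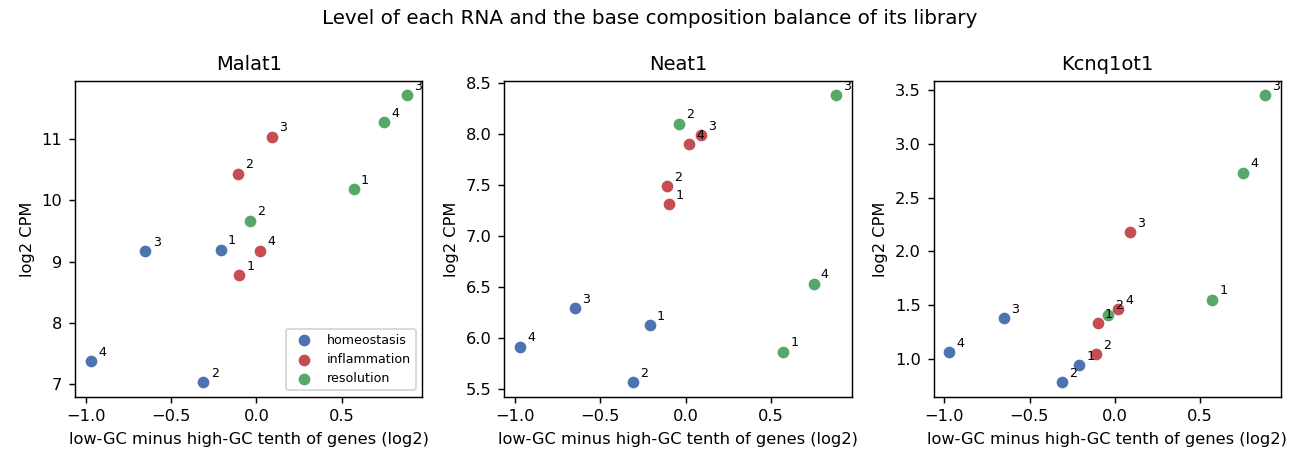
Log2 CPM of each RNA against the library's balance of GC-poor and GC-rich genes (median log2 deviation of the 1363 GC-poorest genes minus that of the 1363 GC-richest), 12 libraries numbered by replicate and coloured by group. Resolution 3 and 4 lie at the right end (0.88 and 0.75) and at the top for Malat1 and Kcnq1ot1, while resolution 1 (0.57) is the lowest resolution library for Neat1.

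Neat1 had higher group means in inflammation and in resolution than in homeostasis, although resolution 1 (57.9 CPM) lay inside its homeostasis range. Most genes of its partners, the paraspeckle proteins, had less RNA in inflammation and in resolution, and protein was not measured. Of 30 tested, 21 fell and 2 rose in inflammation (70% and 6.67%, against 18.3% and 19% of all genes), and 18 fell and 2 rose in resolution (60% and 6.67%, against 25.8% and 27.5%). The list's median log2 fold change was -0.55 and -0.49, against -0.01 over all genes in both comparisons. Against homeostasis 3 and 4 alone 8 fell in inflammation and 11 in resolution (medians -0.24 and -0.19), against 1 and 2 alone 24 and 20, and without homeostasis 2 alone 13 fell in inflammation. The lists here and below were drawn up by name, with earlier results of these data known.

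Sfpq, a core paraspeckle protein that binds Neat1 directly, stood at 369.7, 429, 274 and 266 CPM in homeostasis, at 161 to 179.5 CPM in inflammation and at 130 to 190.2 CPM in resolution. No doxycycline library reached the homeostasis range (-0.98 ± 0.16 SE on the log2 scale, edgeR adjusted p = 6.98e-05, and -1.06 ± 0.16, adjusted p = 1.35e-05). Nono, its dimer partner, fell from 166 ± 45.9 to 101 ± 10.1 and 103 ± 7.86 CPM (SD, n = 4; edgeR adjusted p = 0.0013 and 0.00103). Pspc1, the third of that protein family, fell in inflammation (-0.65 ± 0.18 SE, edgeR adjusted p = 0.0086), a call lost without homeostasis 2 (-0.42, adjusted p = 0.0535) and against homeostasis 3 and 4 alone (-0.22, adjusted p = 0.296). In resolution it did not pass (-0.32 ± 0.18, edgeR adjusted p = 0.14), but did without homeostasis 4 (-0.48, adjusted p = 0.02), against homeostasis 1 and 2 alone (-0.65, adjusted p = 0.00268) and with GC and length offsets (-1, adjusted p = 2.76e-05).

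Rbm14, which is needed for paraspeckles to assemble, fell in inflammation (-0.90) and in resolution (-1.25; edgeR adjusted p = 0.00015 and 2.02e-06). Hnrnpa1 and Dazap1, further RNA-binding components, fell by 0.97 and 1.01 on the log2 scale in resolution. The 2 that rose were Matr3, a nuclear matrix protein (0.74 and 1.24), and Zc3h6, a zinc finger protein named after its values were seen (1.57 and 1.79). With GC and length offsets Matr3 did not pass in inflammation (0.19, edgeR adjusted p = 0.181). In resolution against inflammation 1 of the 30 fell and 1 rose, the latter being Matr3 (0.50, edgeR adjusted p = 0.029; with offsets 0.13, adjusted p = 0.469).

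Genes of nuclear speckles and SR splicing proteins, the surroundings of Malat1, moved in both directions. Of 32 tested, 13 fell and 3 rose in inflammation (40.6% and 9.38%, median -0.28, against 18.3% and 19% of all genes). In resolution 14 fell and 7 rose (43.8% and 21.9%, median -0.22, against 25.8% and 27.5%). Against homeostasis 3 and 4 alone 10 fell and 10 rose in resolution and the median was 0.05. With GC and length offsets 20 fell and 1 rose in inflammation, and 21 fell and 2 rose in resolution. The SR proteins Srsf2, Srsf4 and Srsf7 fell in both, by 0.75, 0.88 and 0.74 and then by 1.15, 1 and 0.94 on the log2 scale (edgeR adjusted p = 2e-07 for Srsf2 in resolution). Acin1, an apoptosis and splicing factor, went from 227 to 127 and 130.2 CPM (-0.84 and -0.80).

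Among the 3 that rose in inflammation were, named after their values were seen, the SR protein kinases Clk1 (0.53) and Clk4 (0.54). In resolution these rose by log2 0.70 and 0.84. Sf3b1, a core part of the U2 particle, passed in resolution (0.66 ± 0.15 SE, edgeR adjusted p = 0.00122), but gave -0.06 with offsets (adjusted p = 0.558). Against inflammation, Sf3b1 passed in resolution higher (0.53, edgeR adjusted p = 0.0244; 0.17 and adjusted p = 0.198 with offsets) and Srsf2 lower (-0.40, adjusted p = 0.0258). In a fit blocked by replicate number the Srsf2 call was lost (adjusted p = 0.0562).

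The machinery that processes and degrades nuclear RNA was split. The list held 24 tested genes for RNase P, m6A methylation, the nuclear exosome and its adaptors. Of these, 10 fell and 4 rose in inflammation (41.7% and 16.7%, median -0.28, against 18.3% and 19% of all genes). In resolution 11 fell and 7 rose (45.8% and 29.2%, median -0.38, against 25.8% and 27.5% of all genes). Against homeostasis 3 and 4 alone 5 fell and 5 rose in inflammation. Pop1, a protein subunit of the RNase P that cuts Malat1, fell from 67.3 to 24.6 and 21.7 CPM (-1.45 ± 0.15 and -1.63 ± 0.15 SE, edgeR adjusted p = 4.85e-07 and 5.1e-08). Exosc10, a catalytic exosome subunit, fell by 0.76 and 0.77 on the log2 scale.

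Among exosome adaptors, Zcchc8 fell (-1.13 and -1.03) while Zfc3h1, a part of the complex that brings polyadenylated nuclear RNA to the exosome, rose (1.11 ± 0.19 and 1.51 ± 0.19 SE, edgeR adjusted p = 0.000176 and 2.89e-06). Rbm7, the partner of Zcchc8, rose by log2 0.65 and 1.08, and the exosome helicase listed as Skiv2l2 by 0.46 and 1.14. The inflammation call for Skiv2l2 was lost against homeostasis 1 and 2 alone (0.35, edgeR adjusted p = 0.137) and without homeostasis 4 or inflammation 1 (adjusted p = 0.0667 and 0.0616). The fourth that rose in inflammation was Trnt1, named after its values were seen, which adds the CCA end to tRNAs and to mascRNA (0.51). Against inflammation, Skiv2l2 (0.68, edgeR adjusted p = 0.00499) and Wtap, a subunit of the m6A writer (0.52, adjusted p = 0.0384), rose in resolution and 0 of the list fell. In a fit blocked by replicate number Wtap did not pass (adjusted p = 0.0629).

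**Figure D4:**
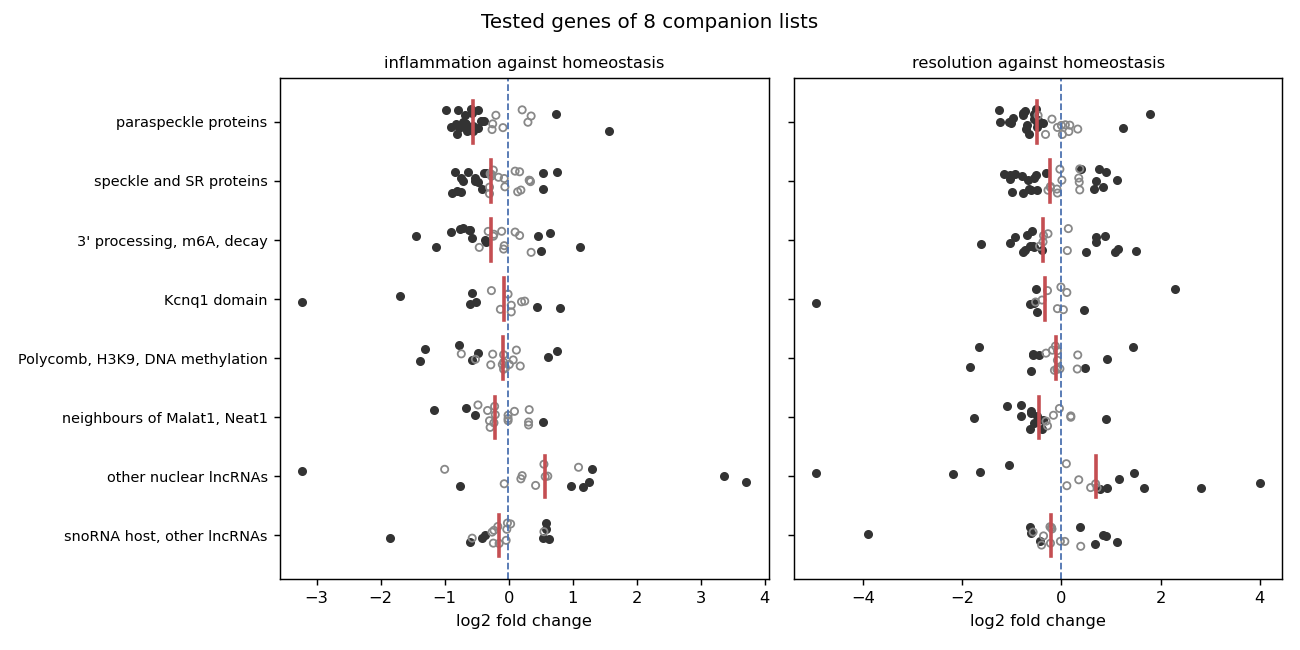
Log2 fold change of each tested gene of 8 companion lists in inflammation (left) and resolution (right) against homeostasis; filled points passed edgeR's test at an adjusted p under 0.05, red bars are list medians and the dashed line is the median of all genes (-0.01). Paraspeckle proteins sit mostly left of the line (medians -0.55 and -0.49) and other nuclear long non-coding RNAs mostly right of it (0.57 and 0.69).

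Around Kcnq1ot1, 3 of the genes that it silences in the embryo were hardly expressed in these cells. Kcnq1 had 0 to 11 counts per library and Phlda2 0 to 4, and neither was tested. Cdkn1c, which encodes a cell cycle inhibitor, had 0 to 26 counts per library and did not pass in any comparison (edgeR adjusted p = 0.77, 0.626 and 0.913). Slc22a18, an imprinted transporter gene of the same domain, was at 1.42, 1.08, 2.28 and 2.22 CPM in homeostasis, 1.90 to 3.52 CPM in inflammation and 7.30 to 9.76 CPM in resolution. It was higher in every resolution library than in all others (log2 fold change 2.30 ± 0.25 SE against homeostasis, edgeR adjusted p = 4.07e-07, and 1.51 ± 0.24 against inflammation, adjusted p = 0.000198). Its inflammation call (0.80, edgeR adjusted p = 0.0204) was lost against homeostasis 3 and 4 alone (0.44, adjusted p = 0.222) and without homeostasis 2, inflammation 1 or inflammation 2.

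Of all genes, 18.3% fell and 19% rose in inflammation, and 25.8% and 27.5% in resolution. Of the 14 tested genes of the domain and its surroundings, 5 fell and 2 rose in each comparison against homeostasis (35.7% and 14.3%, medians -0.07 and -0.33). Against homeostasis 1 and 2 alone 4 rose in inflammation, and against 3 and 4 alone 0 of 15 did (edgeR, as above). H19, the imprinted RNA of the adjoining domain, had the largest change among them. It went from 48.3 to 86.3 CPM in homeostasis to 5.53 to 7.47 CPM in inflammation and 1.62 to 2.66 CPM in resolution, with no overlap between groups (log2 fold changes -3.22 ± 0.20 and -4.94 ± 0.23 SE, edgeR adjusted p = 8.41e-10 and 4.17e-12). Nap1l4 and Cars, at the edge of the domain, fell by 0.51 and 0.61 in inflammation and by 0.63 and 0.49 in resolution, Cars not with GC and length offsets in resolution (-0.16, edgeR adjusted p = 0.188). Cd81, a tetraspanin gene, rose by log2 0.44 and 0.46, but not against homeostasis 3 and 4 alone (0.27 in both, edgeR adjusted p = 0.122 and 0.094). The others that fell, Igf2 in inflammation (-1.69) and Mrpl23 (-0.58 and -0.52), were named after their values were seen. Dhcr7, an enzyme of cholesterol synthesis, fell in resolution (-0.55), although not against homeostasis 1 and 2 alone (-0.24, edgeR adjusted p = 0.234) or with offsets (-0.23, adjusted p = 0.114), and fell against inflammation (-0.80, adjusted p = 0.00188).

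Chromatin regulators of the kind Kcnq1ot1 works with were mixed. Of 20 tested, 5 fell and 2 rose in inflammation (25% and 10%, median -0.09, against 18.3% and 19% of all genes). In resolution 6 fell and 3 rose (30% and 15%, median -0.10, against 25.8% and 27.5%). Dnmt1, the maintenance DNA methyltransferase, fell from 273 to 104 and 76.3 CPM (-1.39 ± 0.16 and -1.84 ± 0.16 SE, edgeR adjusted p = 1.67e-06 and 2.18e-08). Ezh2, the catalytic subunit of Polycomb repressive complex 2, fell by 1.31 and 1.67 on the log2 scale. Bmi1 and Rnf2, of Polycomb repressive complex 1, rose (0.75 and 0.61 in inflammation, 1.45 and 0.91 in resolution). With GC and length offsets Bmi1 and Rnf2 did not pass in inflammation (0.26 and 0.09, edgeR adjusted p = 0.147 and 0.572), nor did Rnf2 in resolution (0.13, adjusted p = 0.365). Rnf2 was also lost in inflammation against homeostasis 1 and 2 alone (0.44, edgeR adjusted p = 0.0683). Cbx2, Ehmt1 and Dnmt3a were the others that fell in inflammation (-0.78, -0.48 and -0.58), the last 2 of them, and Suz12 that rose in resolution (0.47), named after their values were seen. Against inflammation, Bmi1 (0.70, edgeR adjusted p = 0.0124) and Eed (0.41, adjusted p = 0.0491) passed in resolution, and Eed did not in a fit blocked by replicate number (adjusted p = 0.093).

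Of the protein-coding neighbours of Malat1 and Neat1, 1 rose and more fell. Frmd8, which lies 4.22 kilobases from Neat1, went from 91.5 to 114 and 104 CPM and did not pass (log2 fold change 0.31 ± 0.20 and 0.19 ± 0.20 SE, edgeR adjusted p = 0.239 and 0.448). Against homeostasis 1 and 2 alone it passed (0.86 and 0.72, edgeR adjusted p = 0.000496 and 0.0015), and also without homeostasis 4 (0.58 and 0.44, adjusted p = 0.0168 and 0.047) and with offsets (0.46 and 0.55, adjusted p = 0.0312 and 0.00874). Of 18 tested neighbours 3 fell and 1 rose in inflammation (16.7% and 5.56%, median -0.22, against 18.3% and 19% of all genes). In resolution 11 fell and 1 rose (61.1% and 5.56%, median -0.44, against 25.8% and 27.5%). Against homeostasis 1 and 2 alone 1 fell and 3 rose in inflammation (median 0.03), and 6 fell in resolution. Pola2, a DNA polymerase subunit, fell from 52.0 to 23.1 and 15.2 CPM (edgeR adjusted p = 1.67e-05 and 5.58e-08). Rela, the p65 subunit of NF-kB, fell by 0.52 and 0.62 on the log2 scale, and Sipa1, a GTPase-activating protein, by 0.67 and 1.10. Against homeostasis 1 and 2 alone Rela and Sipa1 did not pass in inflammation (edgeR adjusted p = 0.132 and 0.503), nor did Sipa1 without homeostasis 4 (adjusted p = 0.0695). The neighbour that rose was Slc25a45, a mitochondrial carrier gene (0.54, edgeR adjusted p = 0.0444, and 0.89, adjusted p = 0.00118), the first of these lost when homeostasis 1, 2 or 4 or inflammation 1 or 2 was left out (adjusted p from 0.0509 to 0.148).

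Other long non-coding RNAs with a nuclear or chromatin role were changed in both directions. Of 17 tested, 6 rose and 2 fell in inflammation (35.3% and 11.8%, median 0.57, against 19% and 18.3% of all genes). In resolution 7 rose and 4 fell (41.2% and 23.5%, median 0.69, against 27.5% and 25.8%). Those that fell were H19 in both, Meg3 and Rian in resolution and, named after its values were seen, Mirg in both (-0.76 and -2.18). Tug1 stood at 21.2 to 37.5 CPM in homeostasis, 60 to 79 CPM in inflammation and 58.1 to 113 CPM in resolution, so neither doxycycline group overlapped homeostasis (1.30 ± 0.20 and 1.66 ± 0.20 SE, edgeR adjusted p = 3.99e-05 and 1.11e-06). Xist, which silences 1 of the X chromosomes of female cells, stood at 6.74 to 13.5 CPM in homeostasis, 71.5 to 154 CPM in inflammation and 123 to 268 CPM in resolution (3.36 ± 0.29 and 4.01 ± 0.29 SE, adjusted p = 4.48e-08 and 2.29e-09). The Y-linked counts given above divided the groups in the opposite sense. In resolution against inflammation Xist did not pass (0.66, edgeR adjusted p = 0.0865) and did in a fit blocked by replicate number (0.64, adjusted p = 0.0129), with total counts alone (adjusted p = 0.0492), with no low-count filter (0.000621) and without inflammation 3 (0.0403).

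The maternally expressed RNAs Meg3 and Rian of the Dlk1 domain went the other way from Malat1 in resolution. Meg3 stood at 32.3 to 53.3 CPM in homeostasis, 51.6 to 73.0 CPM in inflammation and 8.86, 30.8, 27.3 and 13.0 CPM in resolution. As with Neat1, resolution 1 and 4 were the low libraries. It fell in resolution against homeostasis (-1.06 ± 0.28 SE, edgeR adjusted p = 0.00381, but adjusted p = 0.0984 against homeostasis 3 and 4 alone) and against inflammation (-1.64 ± 0.29, adjusted p = 0.000594). Rian fell in the same comparisons (-1.64 and -1.57, edgeR adjusted p = 6.57e-07 and 7.35e-06). Between resolution and inflammation 5 of the 17 fell and 1 rose (29.4% and 5.88%, against 7.64% and 8.52% of all genes). The others were H19 (-1.72) and, named after their values were seen, Mirg and Hotair, which fell, and Lincpint, which rose (1.72).

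A further list, of hosts of small nucleolar RNAs or microRNAs and of other long non-coding RNAs, was set beside the nuclear ones. Of 19 tested, 4 rose and 4 fell in inflammation (21.1% each, median -0.15, against 19% and 18.3% of all genes). In resolution 5 rose and 4 fell (26.3% and 21.1%, median -0.20, against 27.5% and 25.8%). Against homeostasis 3 and 4 alone 1 fell in inflammation and 2 in resolution. Mir22hg rose from 26.6 to 41.1 and 47.4 CPM (edgeR adjusted p = 0.00433 and 0.000211), and 2900097C17Rik from 107 to 161 and 234 CPM (adjusted p = 0.0171 and 4.54e-05; adjusted p = 0.188 in inflammation against homeostasis 1 and 2 alone and 0.0504 without homeostasis 3). 1700020I14Rik was at 16.4, 24.4 and 30.5 CPM (0.58 and 0.90), but with GC and length offsets it gave 0.03 and -0.07 (edgeR adjusted p = 0.885 and 0.683). Snhg5 fell in inflammation (-0.61, edgeR adjusted p = 0.0134; adjusted p = 0.255 against homeostasis 3 and 4 alone, and 0.0531, 0.0551 and 0.0565 without homeostasis 1, homeostasis 2 and inflammation 2) and Snhg18 in both (-0.37 and -0.63, adjusted p = 0.0444 and 0.000875), the first of these lost under 16 other settings. The rest of the changed ones were named after their values were seen: 1500012F01Rik rose in both (0.54 and 0.68) and Snhg12 in resolution (0.37), while Snhg8 (-0.41 and -0.43) and 1190002F15Rik (-1.85 and -3.90) fell in both and Snhg3 in resolution (-0.62). Where these RNAs lie in the cell was not measured, and whether this list differed from the nuclear one was not tested.

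Between resolution and inflammation 20 of the 172 companion genes tested passed (11.6%, against 16.2% of all genes). Of those not given above, the 20 included Pola2 (-0.60) and Syvn1 (-0.59), both neighbours, 2900097C17Rik (0.54, edgeR adjusted p = 0.049, and 0.0904 in a fit blocked by replicate number) and 1190002F15Rik (-2.05). The number rested on single libraries: it was 9 without resolution 4 and 41 without resolution 2. The calls for Matr3, Sf3b1, Wtap, Bmi1, Eed, Pola2, Syvn1 and 2900097C17Rik were lost without resolution 3 (edgeR adjusted p = 0.134, 0.108, 0.161, 0.0561, 0.187, 0.0573, 0.0542 and 0.205). The same 8 were lost without resolution 4 (adjusted p from 0.052 to 0.181), as was that for Srsf2 (0.0839). Such losses were not particular to resolution 3 and 4. Without inflammation 2, calls for Matr3, Sf3b1, Wtap, Eed, Pola2, Syvn1, 2900097C17Rik and Srsf2 were lost too (edgeR adjusted p from 0.0523 to 0.157). Resolution 3 and 4 were also the highest libraries for Malat1 and Kcnq1ot1, and the part of that in these calls was not tested.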

How the data were processed

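Libraries of poly(A) RNA were sequenced per the labels' protocols. The values are estimated counts of reads per gene symbol, made by the authors and deposited without normalization. GRCm38.p3 is the genome build per the submitters' processing notes; aligner, counting tool, annotation and strand setting: not given in the sources used here. Some 1.43% of the counts were not whole numbers (tolerance 0). Repeated symbols were summed, entries without a value (13 of 36930) left out and counts rounded, which left 36875 symbols.

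Genes were filtered with edgeR 4.0.16 (default filter, 15049 genes), scaled with TMM and tested with its quasi-likelihood test (robust, all 12 libraries, group as the only term) in R 4.3.3, with Benjamini-Hochberg adjustment over all genes tested and a threshold of 0.05. The fit was tested on simulated data. Log2 CPM used a prior count of 2. The members and gene lists were chosen with earlier results of these data known. Named genes are, per list and comparison, up to 4 that passed with the smallest adjusted p and at least 5 CPM in the higher group, a fixed set of 13 genes, and the 5 genes most alike to each member. Some genes of this rule are counted in their lists but not reported here by name. Lengths and GC come from the longest GENCODE M21 transcript (90.6% of tested genes). Alternatives were other scalings, filters, DESeq2 1.42.0, fewer samples and offsets for GC and length. Total counts of 18120745 to 34971537 per library set the floor of 3 counts at 0.0858 to 0.166 CPM; this floor and the Poisson intervals cover counting error only. No 2 libraries of a group agreed within sampling noise (reduced chi-square 9.98 to 110.5).

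Same-numbered libraries of inflammation and resolution deviated together (r from 0.13 to 0.21 in all 4 pairs). Differently numbered pairs are not set beside these, and the labels do not say what the number marks. For that comparison the replicate number is therefore treated as a possible pairing only. For pairs with homeostasis r ran from -0.23 to 0.08. Over the 3 groups, only 4 of the 12 libraries were most like a same-numbered library of another group, so a pairing is not established. The main fit does not use the replicate number.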

Additional observations from a re-analysis of the deposited data

Results flagged for a closer look

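Among 80 genes (the members, the named companion genes and the genes most alike), each checked in 3 groups of 4 libraries, 7 groups held a library far from the other 3. Chance alone flags about 1 in 20 groups, which over 240 groups is more than the 7 found. None of the 7 was in Malat1, Neat1 or Kcnq1ot1. Genes most alike to the members were picked over these same libraries, so a high library that they share is no separate support. Inflammation 3, a high library for all 3 RNAs, stood apart for 3 of the genes that follow them. Clk1 was at 59.2 CPM there against 47.2 to 48.8 CPM in the other inflammation libraries. Tle2 was at 27.9 CPM against 21 to 22.1 CPM, and 9930021J03Rik at 24.7 CPM against 16.3 to 17.5 CPM. Wtap stood at 12.6 CPM in inflammation 2 against 15.6 to 16.1 CPM. Sipa1 stood at 27.9 CPM in resolution 2 against 20.5 to 21 CPM, and Mrpl49 at 21 CPM in resolution 1 against 15.3 to 15.9 CPM. Cdkn1c stood at 0.725 CPM in homeostasis 4 against 0.609 to 0.627 CPM, with 11 to 20 counts in each of the 4 libraries.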

How the results depend on the processing

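Offsets for GC content and transcript length, added after seeing the data, moved Kcnq1ot1 most, to a log2 fold change of -0.09 in inflammation and 0.35 in resolution. They turned Sf3b1 (-0.06) and 1700020I14Rik (-0.07) in resolution; the cause was not tested. The companion genes passing between resolution and inflammation, 20 in all, were 31 with only the 2 groups compared, 31 and 32 against homeostasis 1 and 2 or 3 and 4 alone, and 9 to 41 with 1 library left out. All genes passing there (2431) ran from 1242 to 4191 with 1 library left out. In inflammation and resolution against homeostasis, 5602 and 8025 genes passed, and 4476 to 6076 and 7090 to 8510 with 1 library left out. With a replicate block 5053, 7589 and 1898 genes passed, and in the comparisons against homeostasis, where the numbers were not treated as pairs, it ended the calls for Slc25a45 (0.50, adjusted p = 0.0717) and Snhg18 (-0.38, 0.0544) in inflammation and of no other named gene. Of 1223 combinations of a named gene and another setting, 48 lost a call and 11 gained one in inflammation, 14 and 16 in resolution, where the 2 that turned also lost their calls, and 74 and 38 between them. CPM and CPM per kilobase of the members stand side by side in the text. Kcnq1ot1, at 36 to 238 counts, is the member whose values counting error limits most.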
